A study of Homo sapiens with 2 samples.

Results

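The loci described here are the genes of the H/ACA box small nucleolar RNAs and of the small Cajal body RNAs in 2 human embryonic stem cell lines. They were chosen by name alone, as every row of the deposited table whose symbol starts with SNORA or SCARNA followed by a digit. This gave 131 of 25593 rows, of which 107 are SNORA and 24 are SCARNA loci. The libraries came from HuES53 and HuES64, diploid embryonic stem cell lines grown undifferentiated and taken at a passage under 20, which serve as the diploid controls of a study on haploid cells. No treatment or engineered allele is named for either line. Each line was sequenced once from polyadenylated RNA, so there is no replicate error and every difference below describes 2 libraries, not the lines. Values are FPKM, in which the fragments of a row are scaled by its length and by the size of the library.

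H/ACA RNAs fold into a pair of hairpins joined by a hinge, the H box, and end in a tail with the bases ACA. Base pairing in the hairpins directs the pseudouridine synthase dyskerin to its target uridines, in ribosomal RNA for the nucleolar members and in spliceosomal small nuclear RNA for those held in Cajal bodies. In human cells most of these RNAs are cut out of introns of host genes, many of which encode ribosomal proteins or translation factors, while SNHG genes are hosts with no known protein product. The mature RNAs carry no poly(A) tail, so a poly(A)-selected library does not measure the mature pool as such, and an unstranded table cannot separate a fragment of the small RNA from one of a host transcript that contains it.

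The sequences of the highest loci show these features. Names were matched to GENCODE release 29 on GRCh38 for 124 of 131 loci, 10 of them through an older symbol, and 83 had the same length in both. Capitals mark the ANANNA match nearest the middle of each sequence, the form of the H box, and, where present, ACA placed exactly 3 bases from the annotated 3′ end. SNORA40 (chr11:93735111-93735236, minus strand) and SNORA8 (chr11:93732361-93732499, minus strand) are shown because they come from 1 cluster in TAF1D and hold many of the fragments.
SNORA40: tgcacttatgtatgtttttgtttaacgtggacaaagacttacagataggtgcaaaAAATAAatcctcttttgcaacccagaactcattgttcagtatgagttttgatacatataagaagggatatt
SNORA8: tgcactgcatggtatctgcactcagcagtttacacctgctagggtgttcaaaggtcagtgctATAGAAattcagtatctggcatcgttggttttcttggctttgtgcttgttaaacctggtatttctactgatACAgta
The next 3 come from other hosts. SNORA61 (chr1:28579764-28579893, minus strand) lies in SNHG12, while SNORA70 (chrX:154400281-154400415, plus strand) in RPL10 and SNORA10 (chr16:1962334-1962466, minus strand) in RPS2 are the pair of higher loci whose level ratio between the libraries left out 1.
SNORA61: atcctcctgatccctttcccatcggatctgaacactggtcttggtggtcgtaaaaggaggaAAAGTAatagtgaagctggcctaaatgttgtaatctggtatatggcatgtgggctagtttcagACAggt
SNORA70: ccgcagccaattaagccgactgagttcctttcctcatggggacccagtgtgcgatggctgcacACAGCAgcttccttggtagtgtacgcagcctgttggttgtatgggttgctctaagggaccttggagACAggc
SNORA10: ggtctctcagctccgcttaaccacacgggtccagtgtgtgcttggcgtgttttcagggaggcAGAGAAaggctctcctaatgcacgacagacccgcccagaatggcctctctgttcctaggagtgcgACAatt
Each of these 5 lies inside an exon of at least 1 GENCODE transcript of its host. SNORA40 is the only one of the 5 whose annotated end lacks ACA at that place. It is also the poorest of them in G and C, at 32.5%, against 56.4% in SNORA10.

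The ACA end was common among the loci and rare elsewhere. Only ACA at exactly the place given above was counted, so an ACA at the very end of a sequence was not. At that place ACA was present in 80 of 104 matched SNORA sequences (76.9%) and in 11 of 20 SCARNA sequences (55.0%). The same held for 15 of 1081 other GENCODE transcripts of 120 to 160 bases (1.39%) and 4 of 288 SNORD transcripts (1.39%). ANANNA, searched on the transcript strand only like the other motifs, is short and was found in 98.1% of SNORA sequences and in 84.4% of those other transcripts. Base composition was close between loci with and without a value: under 160 bases, the median G and C content was 49.6% in 57 loci above 0 and 49.3% in 52 loci at 0. The share with an ACA end was also near in both. It was present in 42 of 57 SNORA loci above 0 in at least 1 line (73.7%) and in 38 of 47 at 0 in both (80.9%). TGATGA, the form of the C box of the other snoRNA class, was found in 9 of 20 SCARNA sequences (45.0%), in 4 of 104 SNORA sequences (3.85%), in 77.4% of SNORD transcripts and in 7.49% of the other transcripts.

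The libraries carried the markers of their label. All 6 pluripotency genes examined were between 84.7 and 1381 FPKM, and the 3 neural and 3 blood or endothelial genes were at most 1.19 FPKM. Of the 6 fibroblast genes 2 were under 1 FPKM in each line and the highest was at 168 FPKM. Of the liver endoderm genes AFP read 7.25 and 1.53 FPKM in HuES53 and HuES64, and ALB was at 0.026 and 0. Because the FPKM of all rows sum to 1.19 times more in HuES64, dividing each line by its sum moves the median difference of all genes by 0.22 (log2) towards HuES53.

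A total of 59 loci were above 0 in HuES53 and 51 in HuES64, with 37 above 0 in both, 22 only in HuES53, 14 only in HuES64 and 58 in neither. At 1 FPKM or more there were 55 in HuES53 (42.0%) and 47 in HuES64 (35.9%), against 54.2% and 53.3% of all genes. Other loci of 121 to 190 bases were above 0 in 39.8% of cases in HuES53 and 33.7% in HuES64, so the share among SNORA and SCARNA loci was nearer to that of loci of their own length. This length comparison was chosen after the values were seen. An exact 0 in such a table can also be a failed estimate, so these loci are said to be listed at 0.

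How often a locus was above 0 differed with span and with RNA class. No row shorter than 101 bases was above 0 in either line (1487 rows), and 9 of the 1626 rows of up to 120 bases were. SNORD loci, the C/D box class, have a median span of 81 bases, and 12 of 276 (4.35%) were above 0 in at least 1 line. SNORA loci are longer, with a median of 134 bases, and SCARNA loci have a median of 155. Within the loci described here, 10 of 22 from 120 to under 130 bases, 44 of 80 from 130 to under 140 bases, 8 of 14 from 140 to under 200 bases and 11 of 15 of 200 bases or more were above 0 in at least 1 line. Within classes of span, MIR (microRNA) loci were above 0 less often than the loci described here, on few loci. They were above 0 in at least 1 line in 0 of 10 cases from 120 to under 130 bases. From 130 to under 140 bases it was 3 of 10, and from 140 to under 200 bases 2 of 14. SNORD loci over 120 bases were above 0 in 12 of 13 cases, but 6 of these 13 span 200 bases or more. Among the loci described here the highest value was 387 FPKM in HuES53 and 421 in HuES64 in the shortest class, 335 and 565 FPKM from 130 to under 140 bases, 95.9 and 117 FPKM from 140 to under 200 bases, and 16.0 and 26.8 FPKM at 200 bases or more. Spearman's rho of span and mean FPKM over the 131 loci was -0.09, a description across loci of the same libraries.

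**Figure D1:**
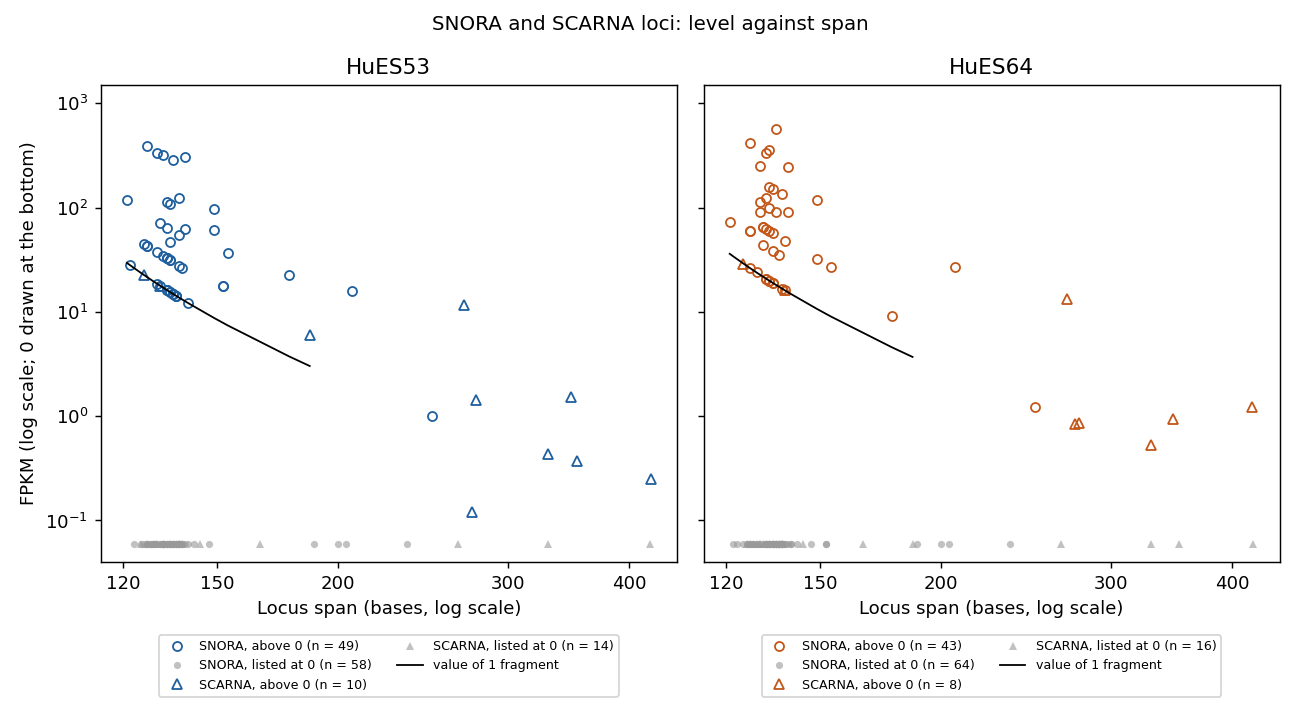
Level in FPKM (log scale) of each SNORA (circles) and SCARNA (triangles) locus against its span in bases (log scale), for each line, with loci listed at 0 drawn in grey at the bottom. The black curve is the fitted value of 1 fragment, and loci that rest on 1 fragment lie on it.

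The values have steps that give the fragments behind them. Among loci of 1 span, values above 0 were whole multiples of a common step, within 0.05% of the value, in 46 of 50 cases in HuES53 and 39 of 43 in HuES64, for spans of 121 to 190 bases. Because 1 value in each of 21 spans is whole by construction, the count without 1 value a span is 64 of 72 over both lines. The method was developed on these values, so these shares are fitted best values, and that 1 step is 1 fragment is an assumption. In 20 of 20 simulated tables of these 131 loci the method returned the ratio of steps to within 1% and every count checked. These tables were drawn on a curve of the form that the method fits, and values made not whole were left out of the check. They therefore cannot show that the counts in the real table are right. The step was 1.22 times larger in HuES64, the ratio by which HuES53 was sequenced more deeply. On this reading 1 fragment stood for 29.5 FPKM in HuES53 and 36.0 in HuES64 at 121 bases. It stood for 15.6 and 19.0 at 134 bases, and for 8.72 and 10.7 at 149 bases. At 187 bases it stood for 3.03 and 3.70 FPKM, so the step fell faster than plain division by span would give. A locus of 134 bases listed at 0 could hold up to 46.7 FPKM in HuES53 and 57.0 in HuES64, the values of 3 fragments. This takes 3 as the 1-sided 95% bound of a count of 0, which is lower than the upper end of the intervals used below. All intervals below are exact 95% intervals on these fragments and cover counting error only. The fragments were not separated by molecular identifiers.

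Few fragments lay behind the class as a whole. The 110 loci with whole fragments in both lines, 0 included, held 204 fragments in HuES53 and 209 in HuES64. In HuES53 17 loci rested on 1 fragment and 6 on 10 or more, and in HuES64 12 rested on 1 and 7 on 10 or more. The 6 highest held 53.4% of the fragments in HuES53 and 51.7% in HuES64. Loci at 1 fragment read from 12.1 FPKM (SNORA29, HuES53) to 29.1 FPKM (SCARNA22, HuES64).

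The TAF1D cluster was the largest source. TAF1D encodes a subunit of the factor that recruits RNA polymerase I to ribosomal DNA, and GENCODE places SNORA25, SNORA32, SNORA1, SNORA8, SNORA18 and SNORA40 in it. In the deposited table the TAF1D row begins 692 bases beyond the cluster (chr11:93463679-93468402 in the table's own build), so no row contains these 6 loci. SNORA40 read 387 FPKM in HuES53 and 421 in HuES64 (18 and 16 fragments), with a level ratio of HuES53 over HuES64 of 0.92 (0.44 to 1.93). SNORA18 was at 323 and 332 FPKM (19 and 16 fragments), with a ratio of 0.97 (0.47 to 2.02). SNORA8 was at 303 and 247 FPKM (24 and 16 fragments), with a ratio of 1.23 (0.63 to 2.47). These 3 were close between the libraries, each interval holding 1 while allowing about a 2-fold difference either way. SNORA32 had 4 and 2 fragments and SNORA25 had 2 and 3. SNORA1 was the exception, listed at 0 in both lines. Together the cluster held 67 fragments in HuES53 and 53 in HuES64, which is 32.8% and 25.4% of those at all 110 loci, with a ratio of 1.03 (0.71 to 1.51). TAF1D itself read 35.0 FPKM in HuES53 and 33.5 in HuES64, so SNORA40 read above the row of its annotated host in both lines. These are rows of unlike span, in which 1 fragment stands for unlike FPKM.

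**Figure D2:**
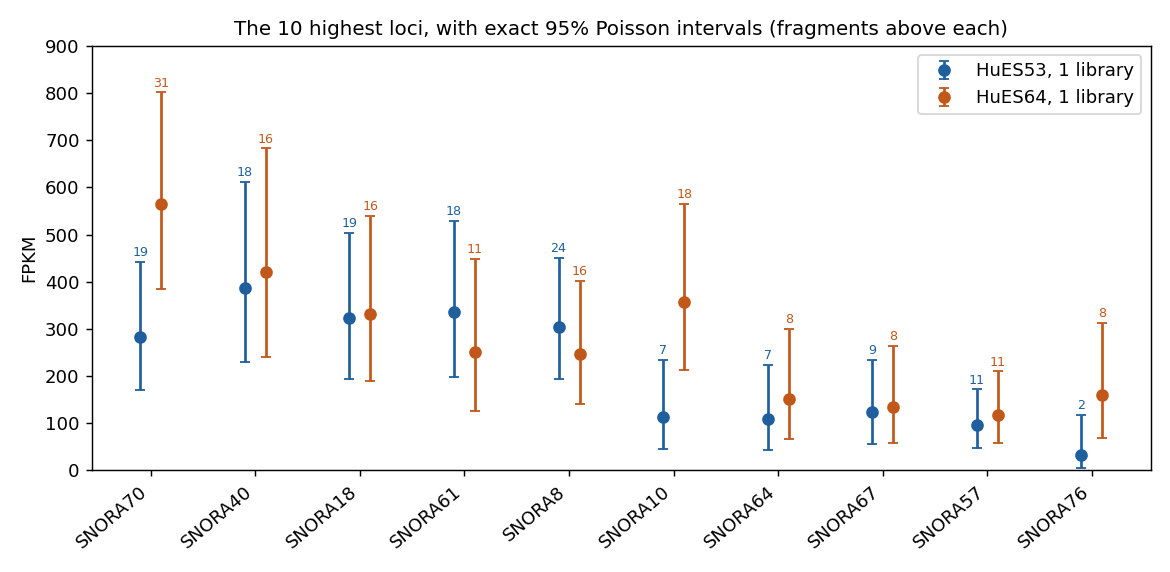
The 10 loci with the highest mean FPKM, with 1 point per line and bars for exact 95% Poisson intervals (counting error only). The number over each bar is the number of fragments. SNORA70, SNORA10 and SNORA76 have the widest gaps between the lines, and SNORA76 rests on 2 and 8 fragments.

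SNORA61, in the non-coding host SNHG12, read 335 FPKM in HuES53 and 250 in HuES64 (18 and 11 fragments), with a ratio of 1.34 (0.60 to 3.14). Its host row was at 24.9 and 32.0 FPKM. The other H/ACA loci of SNHG12 held far fewer fragments, SNORA16A 1 in each line and SNORA44 0 and 1. One host thus carried 1 of the highest loci and 2 near the lower limit of detection. SNORA57, inside the annotated METTL12 gene, which encodes a mitochondrial methyltransferase, was at 95.9 and 117 FPKM (11 fragments in each line) against 1.04 and 3.76 FPKM for the host row. SNORA76, which no row contains and which GENCODE, as SNORA50C, places in SNHG25, was at 32.5 and 159 FPKM (2 and 8 fragments), a ratio of 0.20 (0.021 to 1.02) whose interval just held 1.

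Loci in ribosomal protein genes were all seen. Each of the 16 was above 0 in at least 1 line, 12 of them in both. SNORA70, in RPL10 of the large subunit, read 283 FPKM in HuES53 and 565 in HuES64 (19 and 31 fragments), and its ratio of 0.50 (0.27 to 0.92) left out 1 as deposited, though not after division by the FPKM sum (0.60, 0.32 to 1.09). RPS2, of the small subunit, holds SNORA10 at 114 and 358 FPKM (7 and 18 fragments; ratio 0.32, 0.11 to 0.80) and SNORA64 at 109 and 152 FPKM (7 and 8 fragments; ratio 0.72, 0.22 to 2.26). Both of these were lower in HuES53, and only that of SNORA10 had an interval that left out 1. RPSA, another small subunit gene, holds SNORA6 at 61.0 and 32.0 FPKM (7 and 3 fragments) and SNORA62 at 36.9 and 27.0 FPKM (5 and 3 fragments), both higher in HuES53 with intervals that held 1. RPL27A holds SNORA3 at 37.2 and 114 FPKM (2 and 5 fragments) and SNORA45 at 17.8 and 43.5 FPKM (1 and 2 fragments), both lower in HuES53 with intervals that held 1. SNORA52, in RPLP2 of the ribosomal stalk, was at 46.7 and 19.0 FPKM on 3 and 1 fragments. SNORA65 in RPL12 was at 14.3 and 34.9 FPKM on 1 and 2 fragments. Loci inside genes of the same family thus lay on both sides of equality at these depths.

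Summed over the 15 loci in ribosomal protein genes with whole fragments there were 59 fragments in HuES53 and 83 in HuES64, a ratio of 0.58 (0.41 to 0.82). Without SNORA70 the ratio was 0.63 (0.41 to 0.97), without SNORA10 it was 0.65 (0.45 to 0.96), and without both it was 0.79 (0.48 to 1.32). After each line was divided by its FPKM sum the full ratio was 0.69 (0.49 to 0.98). The host rows read in the same direction: 13 of 13 were higher in HuES64, also after that division, and their summed level had a ratio of 0.71. As deposited, nearly all hosts of loci above 0 in both lines were higher in HuES64, so this direction was not particular to ribosomal hosts. The median difference of all genes tested was 0.03 (log2, HuES53 minus HuES64). RPSA was at 1008 FPKM in HuES53 and 1536 in HuES64, while its loci held 12 and 6 fragments. These were too few to set the loci apart from their host in direction. Whether fragments of the host messages make up part of these values was not tested, and the table has no strand to separate them.

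Among loci in translation factor genes SNORA67 was the highest. This locus, in EIF4A1, the helicase of the cap-binding complex, was at 123 and 134 FPKM (9 and 8 fragments), while SNORA48 of the same gene was at 14.9 and 0 FPKM (1 and 0 fragments). EIF4A2, the paralog, holds 3 loci that did not move together. SNORA81 read 22.5 FPKM in HuES53 and 9.15 in HuES64 (6 and 2 fragments), SNORA63 at 14.9 and 91.1 FPKM (1 and 5 fragments), and SNORA4 at 54.8 and 0 FPKM (4 and 0 fragments). Each of their intervals held 1, and their sum was 11 and 7 fragments. Over all hosts with an EIF or EEF symbol 7 of 10 loci were above 0 in at least 1 line, and over SNHG hosts 10 of 13, against 32 of 83 in the remaining hosts. These host classes go by the symbols of the deposited table, were set after the values were seen, and leave out hosts listed there under other names, such as the LOC388796 row of SNORA71A.

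A comparison at 2-fold gives large counts that rest on few fragments. Of 67 loci with a mean of at least 1 FPKM, 21 were higher in HuES53 by 2-fold or more (31.3%) and 20 in HuES64 (29.9%), on the log2(FPKM + 1) scale, against 2.15% and 1.7% of all genes. Other loci of 121 to 190 bases gave 25.0% and 35.0% (40 loci), so these shares were not far from those of loci of the same length. At 4-fold there were 19 and 15, against 0.435% and 0.334% of all genes. Of the 41 loci past 2-fold, 31 were listed at 0 in one line and 10 were above 0 in both. Whole fragments were recovered for 39 of the 41, and 37 of these had an interval that held 1. Of the 29 among them at 0 in one line, 19 had 1 fragment and 8 had 2 or 3. With so few fragments the interval cannot leave out 1, so this count mostly reflects depth. Over all 56 loci with whole fragments above 0, 53 had an interval that held 1. The 3 that did not were SNORA70, SNORA10 and SNORA72. These intervals are not adjusted for the 56 loci. Dividing each line by its FPKM sum gave 54 and 2: SNORA70 then had a ratio of 0.60 (0.32 to 1.09), while SNORA10, at 0.38 (0.13 to 0.95), still left out 1.

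**Figure D3:**
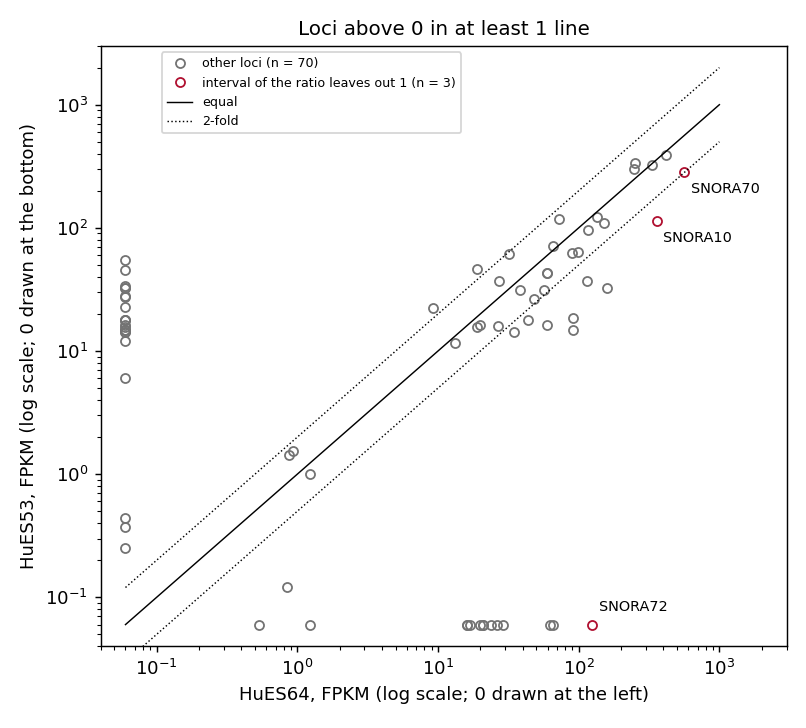
Level in HuES53 against level in HuES64 (FPKM, log scales) for the 73 loci above 0 in at least 1 line, with loci listed at 0 drawn along the left and lower edges. The solid line marks equal levels and the dotted lines a plain 2-fold ratio, and the 3 labelled loci in red are those whose interval of the ratio left out 1.

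Among loci above 0 in both lines the differences past 2-fold were mostly towards HuES64. Of these loci past 2-fold, SNORA10 alone had an interval that left out 1. SNORA52 (1.25 on the log2 scale, HuES53 minus HuES64) and SNORA81 (1.21) were higher in HuES53. Those higher in HuES64 included SNORA63 (-2.53), SNORA76 (-2.25), SNORA31 (-2.23), SNORA10 (-1.64), SNORA3 (-1.59), SNORA45 (-1.24) and SNORA65 (-1.23). SNORA31, in TPT1, the gene of the translationally controlled tumour protein, went from 18.6 FPKM in HuES53 to 91.0 in HuES64, on 1 and 4 fragments. SNORA70 lay just inside the limit at -0.99. The next in order towards HuES53 were SNORA6 (0.91), SNORA32 (0.70) and SNORA62 (0.43). The next towards HuES64 were SNORA25 (-0.85) and SNORA71A (-0.85). The median over the 67 loci was -0.18, against 0.03 over all genes tested. Over the 40 other loci of the same length range, compared above, it was -0.61, further towards HuES64. After division by the FPKM sum the median over the 67 loci was -0.02. The summed fragments gave a level ratio of 0.80 (0.66 to 0.97), which was 0.85 (0.69 to 1.05) without SNORA70, 0.72 (0.57 to 0.91) without the TAF1D cluster, and 0.95 (0.78 to 1.15) after division by the FPKM sum. The ratio was below 1 in each of these, and whether its interval held 1 changed with the scaling and with SNORA70.

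The highest loci listed at 0 in one line rested on 6 fragments or fewer. SNORA72, in RPL30 of the large subunit, was listed at 0 in HuES53 and was at 125 FPKM in HuES64 on 6 fragments. The upper bound of its ratio was 0.69, and 0.82 after division by the FPKM sum. SNORA11 in MAGED2 and SNORA51 in NOP56 followed at 65.2 and 62.3 FPKM in HuES64, on 3 fragments each. SCARNA22 (29.1 FPKM) and SNORA78 (26.3 FPKM) had 1 fragment each in HuES64. In the other direction SNORA4 was the highest at 54.8 FPKM in HuES53 on 4 fragments. SNORA27 in RPL21 (45.2 FPKM), SNORA20 in TCP1 (34.0 FPKM), SNORA21 in RPL23 and SNORA9 in the row C7orf40 (32.5 FPKM each) had 2 fragments each in HuES53. Of these 10 loci, SNORA72 alone had an interval that left out 1. The others had 4 fragments or fewer, too few for such an interval to leave out 1.

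A containing row that is not itself a small RNA was found for 122 of the 131 loci, in 100 distinct hosts. Most loci read below their host, but many of these were listed at 0. A locus of 134 bases at 0 could hold up to 46.7 FPKM in HuES53 and 57.0 in HuES64. It cannot be placed below a host of a lower level. In HuES53 14 loci (11.5%) and in HuES64 8 (6.56%) were above their host, 6 of them in both lines: SNORA61, SNORA57, SNORA70, SNORA17, SNORA11D and SNORA11E. SNORA57 was 92.1 times its host row in HuES53 and 31.1 times in HuES64, and SNORA61 was 13.4 and 7.84 times its host row. Such multiples, and the counts above the host, do not compare like with like. In these short rows 1 fragment stands for more FPKM than plain division by span would give. The others were closer, and SNORA70 was 1.07 and 1.73 times RPL10. Hosts of loci above 0 had a median of 157 FPKM in HuES53 and 205 in HuES64, and hosts of loci at 0 had medians of 20.8 and 20.6. Spearman's rho of locus and host level across the 122 loci was 0.40 in HuES53 and 0.49 in HuES64, a description across loci of 1 library that share 100 hosts. Among the 31 loci with a host and above 0 in both lines, 24 differed between the lines in the direction of their host, but 30 of the 31 hosts were higher in HuES64.

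In the following hosts with several loci the fragments were too few to show how closely members of 1 host ran together. The LOC388796 row, the host of SNORA71A to SNORA71D and in GENCODE the SNHG17 gene, had the widest difference of any host, at 9.25 FPKM in HuES53 and 73.0 in HuES64 (-2.85 on the log2 scale). Its loci had 2 and 3 fragments at SNORA71A, 1 and 0 at SNORA71B, 0 and 1 at SNORA71C and none at SNORA71D. In all these were 3 and 4, too few to tell whether the loci shared the gap of their host. In TBRG4 SNORA5A had 2 fragments in each line, SNORA5C had 2 and 0, and SNORA5B none. In TCP1, a chaperonin subunit gene, SNORA20 had 2 and 0 fragments and SNORA29 1 and 0, while the host was at 193 and 173 FPKM. SNORA2A, SNORA2B and SNORA34, which share the row C12orf41, were all listed at 0 in both lines with their host at 12.6 and 17.8 FPKM.

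**Figure D4:**
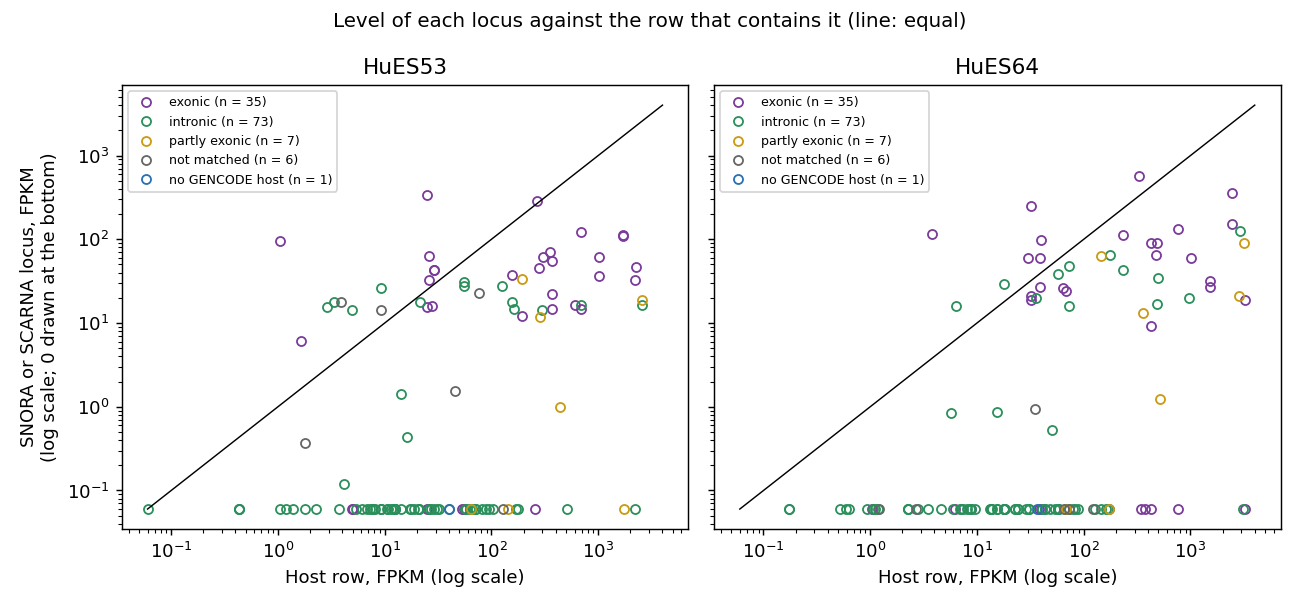
Level of each locus against that of the row containing it (FPKM, log scales) in each line, coloured by its position in GENCODE, with loci listed at 0 drawn at the bottom. Points above the solid line exceed their host, 14 in HuES53 and 8 in HuES64, and loci at 0 gather to the left, at the lower hosts.

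Loci in exons and in introns of their hosts differed in how often they were seen. In GENCODE 43 of the 124 matched loci lie inside an exon of at least 1 host transcript, 7 lie partly in one, and 73 are intronic in all transcripts. Of the exonic loci 37 were above 0 in at least 1 line (86.0%), and of the intronic ones 24 (32.9%). The fragments were split more unevenly, with 184 in HuES53 and 177 in HuES64 at exonic loci and 15 and 24 at intronic loci. The exonic share was the higher one in each class of host level, but the gap was clear only from 10 to 100 FPKM. In the other classes it rested on few loci. With a host mean of 10 to 100 FPKM 10 of 12 exonic and 10 of 38 intronic loci were above 0, and with a host of 100 FPKM or more 18 of 19 and 9 of 11. With a host under 10 FPKM they were 2 of 4 and 5 of 24. These classes were made after the values were seen, and GENCODE transcripts are themselves built from RNA evidence, so the split is a description. Spliced or retained host RNA and the small RNA itself cannot be told apart here.

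**Figure D5:**
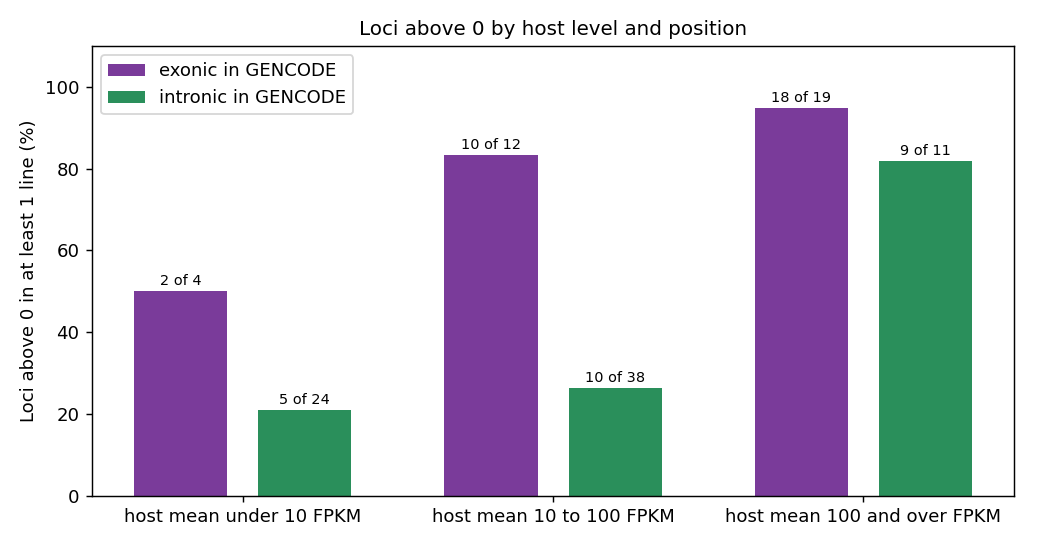
Share of loci above 0 in at least 1 line (percent) by mean level of the host row, for loci inside an exon of at least 1 GENCODE transcript and for loci intronic in all of them. The number of loci is printed over each bar, and the gap is widest at hosts of 10 to 100 FPKM, with 10 of 12 against 10 of 38.

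No small Cajal body RNA locus read above 29.1 FPKM, but these loci were above 0 about as often as SNORA loci. In at least 1 line 14 of 24 (58.3%) were above 0, against 59 of 107 SNORA loci (55.1%). SCARNA loci have the longer median span, 155 against 134 bases, and 1 fragment stands for fewer FPKM in a longer row. Of 24 loci 10 were above 0 in HuES53 and 8 in HuES64, 4 in both, and the highest values were 22.6 FPKM for SCARNA27 in HuES53 and 29.1 FPKM for SCARNA22 in HuES64, each on 1 fragment. SCARNA8 in HAUS6 (17.8 FPKM, HuES53) and SCARNA21 in CHD3 (16.1 FPKM, HuES64) also had 1 fragment, and SCARNA16 had 2 (6.05 FPKM, HuES53). Among the longer loci, for which fragments were not recovered, SCARNA12, in the prohibitin gene PHB2, was close between lines at 11.7 and 13.3 FPKM. SCARNA9L was at 1.53 and 0.936 FPKM, SCARNA5 in the autophagy gene ATG16L1 at 1.42 and 0.867 FPKM, and SCARNA13 in SNHG10 at 0.120 and 0.844 FPKM. SCARNA2 was listed at 0 in HuES53 and was at 1.24 FPKM in HuES64. Matches to the boxes of either snoRNA kind occur in the class, as the following pair shows. SCARNA12 (chr12:6967337-6967606, minus strand) has 1 TGATGA and 4 TGAG matches, the latter the form of the Cajal body box, 1 of them overlapping the TGATGA. It has no ACA at the marked place, but its annotated sequence ends in ACA. SCARNA13 (chr14:95533355-95533629, minus strand) has 1 TGAG match and an ACA end. The matches at the places searched are in capitals.
SCARNA12: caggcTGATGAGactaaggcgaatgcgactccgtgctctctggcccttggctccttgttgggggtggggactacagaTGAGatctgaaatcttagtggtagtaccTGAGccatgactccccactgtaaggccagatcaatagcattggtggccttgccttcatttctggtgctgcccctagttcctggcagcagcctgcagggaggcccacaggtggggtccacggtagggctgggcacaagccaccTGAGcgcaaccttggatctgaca
SCARNA13: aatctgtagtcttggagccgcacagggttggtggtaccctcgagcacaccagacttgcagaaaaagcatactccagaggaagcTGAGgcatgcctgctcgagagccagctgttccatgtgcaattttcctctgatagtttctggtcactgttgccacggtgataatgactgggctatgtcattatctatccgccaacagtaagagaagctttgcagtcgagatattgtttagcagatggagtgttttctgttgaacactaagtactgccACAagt
TGAG alone is common, being present in 65.0% of SCARNA, 43.3% of SNORA, 87.5% of SNORD and 53.3% of the other transcripts. TERC, the telomerase RNA, which is itself an H/ACA RNA of Cajal bodies, read 0.441 FPKM in HuES53, and its HuES64 value was 0. SNORA73A, a U17 RNA that acts in cutting the ribosomal RNA precursor, is another long locus and was at 16.0 and 26.8 FPKM in SNHG3. SNORA53 in SLC25A3 was at 1.00 and 1.22 FPKM.

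Near-identical copies limit what some rows can show. SNORA11D and SNORA11E, in the paired genes MAGED4 and MAGED4B, have identical sequences of 128 bases, shown with the ANANNA match and the ACA end in capitals:
SNORA11D: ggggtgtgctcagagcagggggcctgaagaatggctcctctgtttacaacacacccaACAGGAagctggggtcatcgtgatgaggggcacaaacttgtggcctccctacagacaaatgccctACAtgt
Their rows had identical values, 43.0 FPKM in HuES53 and 59.1 in HuES64. The HuES53 value was 2 steps, and the HuES64 value was not a whole multiple of the step. SNORA59A and SNORA59B also shared their values (17.7 FPKM in HuES53 and 0 in HuES64), and the HuES53 value was not whole. The other loci with values that were not whole, in both lines, were SNORA7A in RPL32, at 62.1 and 89.9 FPKM, whose copy SNORA7B is 98.6% identical and was listed at 0 in both lines, and SNORA17 in SNHG7, at 63.7 and 98.3 FPKM. SNORA43 of the same host, 61.0% identical to SNORA17, was listed at 0 in both lines. For SNORA70 all 6 further copies in the table, SNORA70B to SNORA70G, were listed at 0 in both lines. They are 85.2% to 90.4% identical to it.

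A list of 24 genes held factors that bind, assemble or process H/ACA RNAs and Cajal body factors. It also held C/D box counterparts and the telomerase genes TERC and TERT. All but TERC, 23 in number, had a mean of at least 1 FPKM. None of the 23 was at least 2-fold different, which is near the background of 2.15% of all genes higher in HuES53 and 1.7% in HuES64, with differences from -0.59 to 0.64 (log2) and a median of -0.02. The core of the H/ACA particle is dyskerin with GAR1, NHP2 and NOP10. DKC1, which encodes dyskerin, read 64.0 FPKM in HuES53 and 68.9 in HuES64, GAR1 at 40.3 and 37.3, NHP2 at 185 and 278, and NOP10 at 308 and 428. Of these 4, 3 were higher in HuES64 as deposited and 2 after division by the FPKM sum. The highest of the others were FBL, the C/D box methyltransferase, at 469 and 503 FPKM, RUVBL2, an assembly helicase, at 149 and 198, and NHP2L1, a C/D core protein, at 144 and 175. The rows of DKC1 and NHP2L1 overlap other rows of the table, as do those of 7 further genes of the list, COIL, NOP56, NOP58, PAPD5, TOE1, WRAP53 and TGS1. DKC1 is itself a host, of SNORA36A, listed at 0 in both lines, and of SNORA56, with 0 fragments in HuES53 and 1 in HuES64 (23.9 FPKM). SNORA56 (chrX:154774998-154775126, plus strand) is shown with its central ANANNA match in capitals. It has no ACA at the place searched, but its annotated sequence ends in ACA.
SNORA56: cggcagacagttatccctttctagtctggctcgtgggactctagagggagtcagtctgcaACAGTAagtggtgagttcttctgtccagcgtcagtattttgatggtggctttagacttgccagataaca
The guide RNA locus inside the gene of the enzyme thus lay at the limit of what 1 fragment can show.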

How the data were processed

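RNA of 2 cell lines, 1 library each, was analysed from the authors' deposited table of FPKM values. Per the labels' protocols, poly(A) RNA went into TruSeq RNA libraries. TopHat2 2.0.4 and Cufflinks 2.0.2 are named without a role, per the submitters' processing notes. The build, annotation, strand setting and filters were not given in the sources used here. All 131 loci and the gene lists were chosen with earlier results of these data known.

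Chromosome Y (136 rows) was left out, and rows with the same symbol were summed, which left 25436 symbols. Differences are log2(FPKM + 1), HuES53 minus HuES64, over 13790 genes whose mean was 1 FPKM or more, and the pseudocount of 1 FPKM makes them smaller at low levels. With 1 library per line no test was made and no p-value is given. The host of a locus is the shortest containing row that is no small RNA.

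For spans of 121 to 190 bases a step per span was fitted with a common ratio of lines, each step within 2% of a power curve of span through 12 spans. The estimator replaced earlier ones, the last of which failed on simulated tables, and each was developed with these values in view. Fragments carry exact Poisson intervals, and ratios exact binomial (Clopper-Pearson) intervals on the split of fragments, divided by the depth ratio of 1.22. The analysis used Python 3.11.15 with scipy 1.17.1. Sequences and positions came from GENCODE release 29 with symbols from RefSeq, matched by name only. Genes named are the 10 highest loci, the 10 largest differences each way among loci above 0 in both lines, the 5 highest of each line at 0 in the other, SCARNA loci with a mean of at least 1 FPKM, loci sharing a host and differing in direction, and their hosts. Loci of near-identical copies, SNORA1, SNORA53, SNORA73A, SCARNA13 and other loci outside that rule were chosen after their values were seen. A locus with its host, and a sequence, that fall under this rule are left unreported.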

Additional observations from a re-analysis of the deposited data

How the results depend on the processing

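The counts of loci detected changed by less than 1.5 times under each alternative tried: above 0, at least 0.1 or at least 5 FPKM, division by the FPKM sum, and taking only the highest of the rows that share a symbol. The counts at 2-fold did so under other pseudocounts, filters, scalings and a span of at least 130 bases. They fell to 2 (HuES53) and 8 (HuES64) among loci above 0 in both lines, and to 1 and 6 among the 21 loci with at least 5 fragments over both lines, an alternative chosen after seeing the data. The median difference, -0.18, moved to 0.0 with no filter, to -0.022 after division by the FPKM sum, to -0.284 among loci above 0 in both lines and to -0.287 among those with at least 5 fragments. Loci above their host fell from 14 to 8 in HuES53 with hosts of at least 5 FPKM, and from 8 to 5 in HuES64 with a span of at least 130 bases. The alternatives of fewer loci test fewer loci by construction. No paired analysis was possible because each line has 1 library. Depth limits most loci, since by the 1-sided bound a 0 at 134 bases allows 3 fragments, 46.7 FPKM in HuES53 and 57.0 in HuES64.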
